A study of Mus musculus with 4 samples.

Results

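The genes described here are 10 markers of the intestinal tuft cell, namely Pou2f3, Gfi1b, Trpm5, Rgs13, Sh2d6, Dclk1, Avil, Alox5ap, Ltc4s and Il25. They were taken as the rows with these symbols in each of the authors' 2 deposited tables, and 10 of 10 were found in both, among 25522 genes in mice without tetracycline and 26085 in mice given it. The material was RNA of small-intestinal crypts, the pits of the gut lining that hold the stem cells, from male C57BL/6J mice aged 9 weeks. The 4 groups were fed mice and mice fasted for 24 hours, each without tetracycline and after 21 days of this antibiotic, with 1 labelled sample per group. The question was how tetracycline, given to deplete an item abbreviated AKK, bears on transcription under the 2 feeding states. Each deposited table compares fasted with fed mice. The tables' names put the fasted before the fed group and no column gives the direction, so a positive change is taken to mean higher in fasted mice, and every direction below rests on that.

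Tuft cells are rare chemosensory cells of the gut epithelium. They sense compounds in the lumen through a cascade like that of taste cells, in which calcium release opens the cation channel Trpm5, and they answer with the cytokine IL-25 and with cysteinyl leukotrienes. In the small intestine these signals activate innate lymphoid cells, whose IL-13 acts back on the crypt so that more tuft and goblet cells form, a loop best known from infections with helminths and tritrichomonad protists. The transcription factor Pou2f3 is required for the lineage.

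The deposited means show whole counts of 4 libraries behind each table, 2 fasted and 2 fed, although the labels list 1 sample per group. Which library came from which labelled sample cannot be told, and whether the libraries are separate mice is not stated, so the authors' p-values measure the spread between these libraries. On each side, the library with the larger size factor is called library 1. Size factors, the numbers by which the counts were scaled, ran from 0.930 to 1.09 without and from 0.727 to 1.27 with tetracycline, and the means summed to 65863261 and 65327199 normalized counts. The tables held the epithelial genes of the labelled tissue at high levels, with deposited means for Epcam of 83703 and 68783 normalized counts. They also held RNA of other cells. For 8 B lymphocyte markers, the normalized counts summed to 3487 and 6359 in the fed and to 689.8 and 1562 in the fasted libraries without tetracycline. With tetracycline they were 8722 and 2031 in the fed and 2919 and 159.6 in the fasted libraries, so that fed library 1 and fasted library 2 stood apart there.

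The genes lie on 10 different chromosomes (GRCm38, GENCODE release M21) and share no locus. Pou2f3 is at chr9:43123939-43210369 on the minus strand, Gfi1b at chr2:28609450-28621982 on the minus strand and Trpm5 at chr7:143069153-143094642 on the minus strand. Rgs13 is at chr1:144138654-144177372 on the minus strand, Sh2d6 at chr6:72513641-72521707 on the minus strand and Dclk1 at chr3:55242364-55539068 on the plus strand. Avil is at chr10:127000709-127020994 on the plus strand and Alox5ap at chr5:149264767-149288153 on the plus strand. Ltc4s is at chr11:50236461-50238616 on the minus strand and Il25 at chr14:54932695-54935837 on the plus strand. The library kit does not keep the strand, so reads from overlapping exons of another gene cannot be separated. Ltc4s shares 26.4% of its exon bases with Gm26542, Alox5ap 13.3% with Gm19719, Avil 4.86% with Tsfm, Trpm5 3.44% with Tssc4 and Dclk1 0.745% with Gm21954 and Gm42609. The other 5 genes share none.

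RefSeq promoter windows (GRCm38.p6) were at hand for 7 of the 10 genes, as 8 windows of 300 bases, 250 before and 50 after the transcription start. The 100 bases just before the start are shown for the kinase gene Dclk1, which has a pair of starts, for the channel gene Trpm5 and for Rgs13, whose window holds no CpG. CpG dinucleotides, the sites of DNA methylation, are in capitals.
Dclk1, first start, chr3:55242264-55242363, plus strand: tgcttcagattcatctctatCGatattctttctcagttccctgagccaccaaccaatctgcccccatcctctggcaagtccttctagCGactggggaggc
Dclk1, second start, chr3:55461628-55461727, plus strand: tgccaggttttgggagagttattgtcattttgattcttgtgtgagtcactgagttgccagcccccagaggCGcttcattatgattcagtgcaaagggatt
Trpm5, chr7:143094643-143094742, minus strand: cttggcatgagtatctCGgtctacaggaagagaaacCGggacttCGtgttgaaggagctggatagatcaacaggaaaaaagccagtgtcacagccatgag
Rgs13, chr1:144177373-144177472, minus strand: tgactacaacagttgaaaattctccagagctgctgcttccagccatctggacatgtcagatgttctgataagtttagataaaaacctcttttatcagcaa

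The 8 windows held 0 to 7 CpG dinucleotides in 300 bases, with a median of 5.5, against a median of 7 over all 32851 promoters in the table. The window of Rgs13 had none, a count matched by 5.43% of all promoters. The octamer ATGCAAAT, read on both strands (ATTTGCAT on the other), is the sequence that POU2F factors bind. It was present in 0 of the 8 windows and in 1.74% of all promoters. The absence says only that these letters are not in these windows.

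In mice without tetracycline, all 10 tuft cell genes had higher values in the fasted than in the fed libraries, with changes of 0.18 to 1.03 on the log2 scale in the authors' deposited table. Their median was 0.62, or 1.54-fold, while the median over the 18100 genes tested was 0.007 and 50.5% of those genes were higher. None of the 10 passed the authors' test (DESeq2, Benjamini-Hochberg adjusted p under 0.05), which called 1.06% of all genes tested as higher in fasted mice and 1.22% as lower. At an unadjusted p under 0.05 there were 4 of the 10, Trpm5, Dclk1, Sh2d6 and Avil, against 10.8% of all genes. Both fasted libraries lay above both fed libraries for 8 of the 10 genes, a pattern found in 22.5% of decoded genes whose mean reached 1. These are RNA levels of whole crypt preparations, in which more tuft cells and more RNA per tuft cell cannot be told apart.

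In mice given tetracycline, all 10 genes were again higher in the fasted libraries, by 0.28 to 0.76 on the log2 scale in the authors' deposited table. The median was 0.43, or 1.35-fold, beside −0.02 over the 17993 genes tested, of which 48.2% were higher. None passed the authors' test (DESeq2 with Benjamini-Hochberg adjustment), which called 0.333% of genes as higher and 0.267% as lower. None was under an unadjusted p of 0.05 either, where 5.34% of all genes were. Both fasted libraries lay above both fed libraries for 5 of the 10 genes, against 16.0% of decoded genes. Leaving out a library can only keep or raise such counts. The members' count was then 6 without fasted library 1 (31.5% of decoded genes), 9 without fasted library 2 (36.5%), 7 without fed library 1 (26.2%) and 8 without fed library 2 (27.3%). The authors' deposited table gave these genes a median standard error of 0.43, against 0.30 without tetracycline. Over all genes tested the medians were 0.49 and 0.34.

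**Figure D1:**
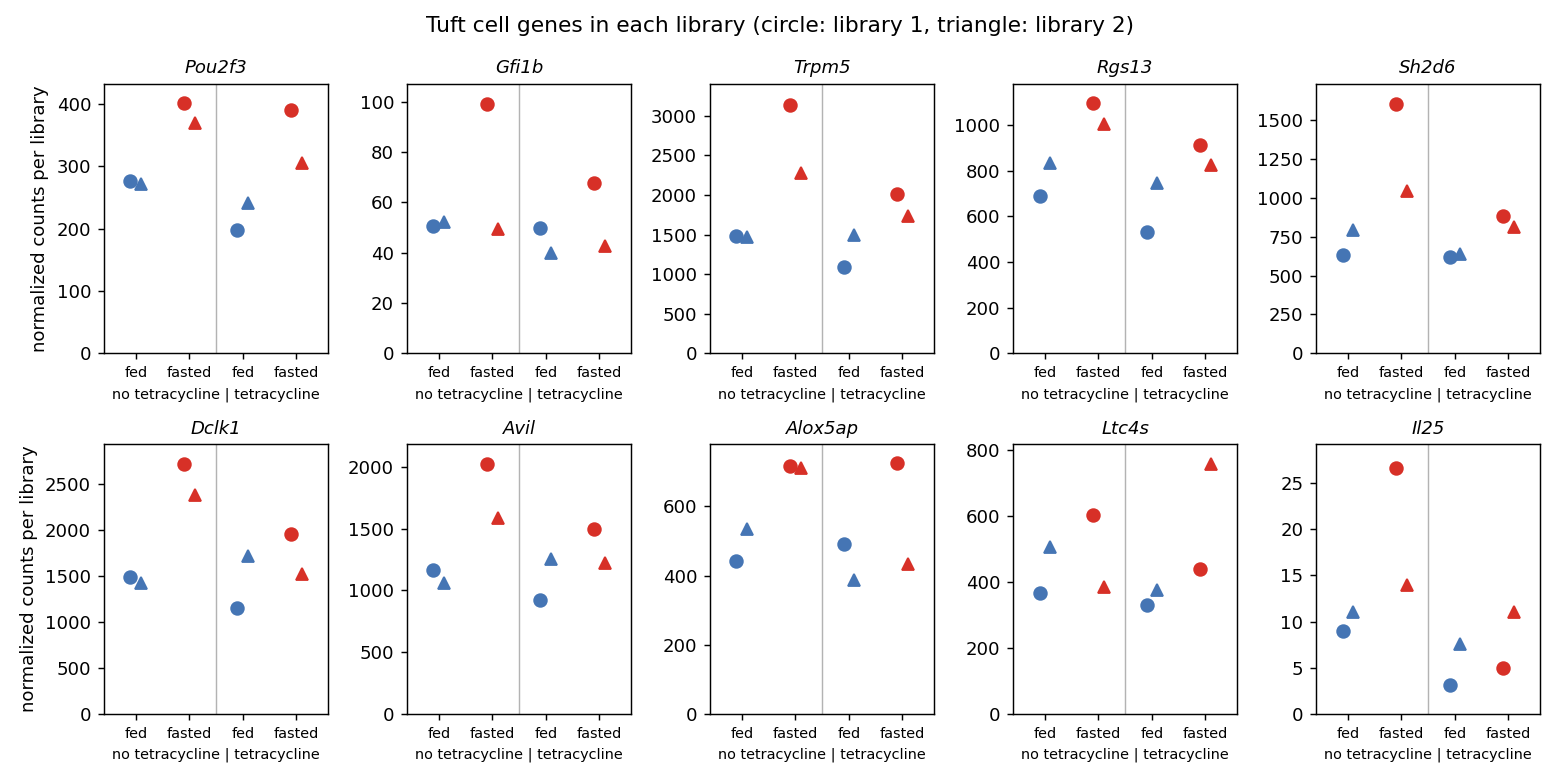
Normalized counts (vertical axes, linear from 0) of each tuft cell gene in the 8 libraries, fed in blue and fasted in red, without tetracycline left and with it right of the grey line; circles are library 1 and triangles library 2. For Trpm5, Dclk1, Sh2d6 and Avil both fasted points lie above both fed points on the left, while on the right the fed and fasted points of Dclk1 and Avil overlap.

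**Figure D2:**
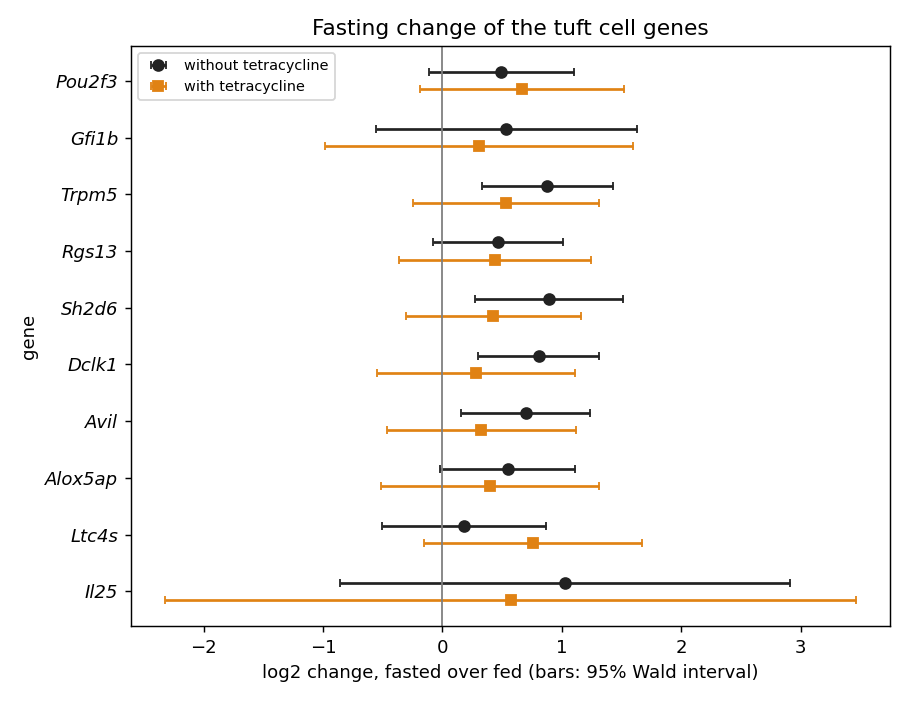
Log2 change, fasted over fed, of the 10 tuft cell genes in the authors' deposited tables, without (black circles) and with tetracycline (orange squares); bars are 95% Wald intervals. All 20 points lie right of 0, and the interval stays above 0 for 4 genes without and for 0 with tetracycline.

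Pou2f3, the lineage-determining factor, had 276.9 and 271.3 normalized counts in the fed and 401.8 and 369.9 in the fasted libraries without tetracycline. With tetracycline it had 197.7 and 241.6 in the fed and 390.8 and 305.4 in the fasted libraries. The fed and fasted libraries did not overlap in either table. The authors' deposited table gave a change of 0.49 (SE 0.31, adjusted p 0.625) without and 0.67 (SE 0.44, adjusted p 0.99991) with tetracycline. Gfi1b, a transcriptional repressor of tuft cells and also of platelet and red cell precursors, was far lower. It had 50.6 and 52.2 normalized counts in the fed and 99.1 and 49.5 in the fasted libraries without tetracycline, so that 1 fasted library alone was high. With tetracycline the values were 49.6 and 39.9 in the fed and 67.5 and 42.7 in the fasted libraries, which overlapped. Its change in the authors' deposited table was 0.53 (SE 0.56, adjusted p 0.852) without and 0.30 (SE 0.66, adjusted p 0.99991) with tetracycline. Without fasted library 1 these were −0.06 and −0.07, and without fasted library 2 they were 0.95 and 0.59.

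Trpm5, the cation channel through which tuft cells depolarise, had 1479.7 and 1469.8 normalized counts in the fed libraries without tetracycline and 3143 and 2278 in the fasted ones. The fed pair was nearly equal and both fasted libraries were well above it. The authors' deposited table gave 0.88 (SE 0.28, p 0.00174, adjusted p 0.0670), rank 469 by p in the whole table. With tetracycline the channel had 1094 and 1491 normalized counts in the fed and 2013 and 1732 in the fasted libraries, which did not overlap. The change in the authors' deposited table was then 0.54 (SE 0.40, adjusted p 0.99991). Rgs13, a regulator that shortens G protein signalling and is also used by some B lymphocytes and mast cells, had 690.7 and 831.9 in the fed and 1097 and 1003 in the fasted libraries without tetracycline. With tetracycline it had 531.5 and 747.5 in the fed and 911.7 and 825.5 in the fasted libraries. The groups did not overlap in either table, and the changes in the authors' deposited table were 0.46 (SE 0.28, adjusted p 0.592) and 0.44 (SE 0.41, adjusted p 0.99991). Without fed library 1 the value with tetracycline was 0.22 for Rgs13 and 0.33 for Trpm5, and without fed library 2 it was 0.71 and 0.78.

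Sh2d6, which encodes an SH2 domain adaptor protein, had 635.1 and 790.7 normalized counts in the fed and 1603 and 1045 in the fasted libraries without tetracycline. With tetracycline it had 619.7 and 641.8 in the fed and 882.1 and 813.1 in the fasted libraries. Fed and fasted libraries were separate in both tables. The authors' deposited table gave 0.89 (SE 0.32, adjusted p 0.130) without and 0.43 (SE 0.37, adjusted p 0.99991) with tetracycline. The first value was 0.55 without fasted library 1, the highest library of this gene.

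Dclk1, a microtubule-associated kinase and the classic tuft cell marker, had 1494 and 1424 normalized counts in the fed and 2718 and 2382 in the fasted libraries without tetracycline. All 4 values were tight within their side and the sides were far apart. The change in the authors' deposited table was 0.81 (SE 0.26, p 0.00176, adjusted p 0.0673). With tetracycline Dclk1 had 1155 and 1720 in the fed and 1962 and 1527 in the fasted libraries, so that fed library 2 exceeded fasted library 2. The authors' deposited table then gave 0.28 (SE 0.42, adjusted p 0.99991), and the value was 0.02 without fed library 1 and 0.59 without fed library 2. Avil, an actin-severing protein of the microvillus core, had 1161 and 1062 in the fed and 2023 and 1584 in the fasted libraries without tetracycline. With tetracycline it had 922.9 and 1252 in the fed and 1497 and 1224 in the fasted libraries, and these overlapped. Its changes in the authors' deposited table were 0.70 (SE 0.28, adjusted p 0.222) and 0.32 (SE 0.40, adjusted p 0.99991), the latter 0.12 without fed library 1 and 0.56 without fed library 2.

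Of the leukotriene genes, Alox5ap encodes the membrane protein that hands arachidonic acid to 5-lipoxygenase. It had 441.6 and 535.5 normalized counts in the fed and 717.3 and 709.8 in the fasted libraries without tetracycline, and these did not overlap. With tetracycline it had 490.6 and 387.2 in the fed and 724.9 and 433.4 in the fasted libraries, where fasted library 1 alone was above both fed ones. The authors' deposited table gave 0.55 (SE 0.29, adjusted p 0.491) and 0.40 (SE 0.47, adjusted p 0.99991), the latter −0.02 without fasted library 1 and 0.72 without fasted library 2. Ltc4s, the synthase that joins glutathione to leukotriene A, showed the reverse. Without tetracycline its libraries overlapped, at 365.2 and 506.3 in the fed and 601.7 and 386.1 in the fasted libraries. With tetracycline they did not, at 329.2 and 376.4 in the fed and 438.6 and 756.7 in the fasted libraries. The changes in the authors' deposited table were 0.18 (SE 0.35, adjusted p 0.947) and 0.76 (SE 0.47, adjusted p 0.99991). The former was −0.17 without fasted library 1 and −0.04 without fed library 1, but 0.47 without fasted library 2 and 0.44 without fed library 2. The latter ran from 0.31 without fasted library 2 to 1.10 without fasted library 1.

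Il25, the cytokine by which tuft cells call on innate lymphoid cells, was read at few counts. Its whole counts were 9 and 11 in the fed and 29 and 13 in the fasted libraries without tetracycline. With tetracycline they were 4 and 7 in the fed and 6 and 8 in the fasted libraries. As normalized counts the fed and fasted libraries were separate without tetracycline (8.93 and 11.1 against 26.6 and 14.0) and overlapped with it (3.15 and 7.55 against 4.94 and 11.0). The authors' deposited table gave 1.03 (SE 0.96, adjusted p 0.823) without tetracycline and 0.57 (SE 1.48, no adjusted p) with it. The former was 0.48 without fasted library 1. The 95% interval with tetracycline, −2.32 to 3.46, spans both directions widely, so no change was detectable at this depth, and that value was −0.12 without fasted library 2 and 1.34 without fed library 2.

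Summed over the 10 genes, the normalized counts without tetracycline were 6603 and 6954 in the fed and 12430.3 and 9822 in the fasted libraries. With tetracycline they were 5393 and 6905 in the fed and 8892 and 7672 in the fasted libraries. The sums did not overlap in either table. Fasted library 1 exceeded fasted library 2 for 10 genes without and for 8 genes with tetracycline, so that the 2 fasted libraries also differed from each other along this set. The members' median change was 0.50 to 0.88 without tetracycline when each library was left out in turn, the lowest without fasted library 1. With tetracycline it was 0.37 to 0.65, at 0.50 without fasted library 2 and 0.37 without fed library 1, the 2 libraries that stood apart in B lymphocyte markers.

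Levels can be compared between the genes only per length. As normalized counts per kilobase of exon, the median over the 8 libraries was highest for Rgs13, at 501 (range 321 to 663). Sh2d6 had 474 (367 to 949), Ltc4s 407 (325 to 746), Avil 364 (272 to 595) and Alox5ap 361 (273 to 510.5). Trpm5 followed with 252 (171 to 491), Dclk1 with 106 (75.5 to 178) and Pou2f3 with 94.3 (64.0 to 130.1). Gfi1b had 27.4 (21.8 to 54.1) and Il25 9.37 (2.96 to 25.0). Each neighbouring pair in this order overlapped in range except Pou2f3 and Gfi1b, so these ranges do not resolve the order of the first 5 genes. The exon length of Dclk1 joins all annotated isoforms, which lowers its value per length.

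Whether fasting acted differently under tetracycline was tested on the difference of the 2 deposited changes (with tetracycline less without), by a two-sided Wald test adjusted by Benjamini-Hochberg over 17571 genes, of which 0.0228% were called. None of the 9 tuft cell genes tested was called, and 0 had an unadjusted p under 0.05, beside 185 of the 17571 genes. Il25 was not in the test for lack of an adjusted p. The difference was negative for 8 of the 10 genes and had a median of −0.29. It was lowest for Dclk1, at −0.53 (95% interval −1.50 to 0.45, p 0.289, adjusted p 0.99997), and −0.34 for Trpm5 (−1.29 to 0.61). The positive values were 0.17 for Pou2f3 (−0.88 to 1.22) and 0.58 for Ltc4s (−0.57 to 1.72). These intervals include both no difference and a difference of more than 1 on the log2 scale in at least 1 direction. No difference was thus detectable by this test at this number of libraries.

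Set side by side across the separately scaled tables, the genes were lower with tetracycline in 10 of 10 cases in fed crypts. The median log2 ratio there was −0.25, from −0.85 for Il25 to −0.08 for Dclk1, after centring on the median of 21925 genes. In fasted crypts 9 of 10 were lower, with a median of −0.48, from −1.31 for Il25 to 0.21 for Ltc4s. Between these, Sh2d6 stood at −0.71, Dclk1 at −0.61 and Trpm5 at −0.60, and Pou2f3 was nearest to 0 among the lower genes, at −0.21. By construction of the centring, as many of all genes were lower as were higher. Both libraries with tetracycline lay below both without for 3 of the 10 genes in fed crypts, against 12.7% of decoded genes, and for 6 of the 10 in fasted crypts, against 8.67%. These ratios cross tables that the authors normalized apart and were not tested.

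Further genes of the tuft cell programme, from 4 lists chosen with earlier results of these data known, gave no call in either table (DESeq2, adjusted p under 0.05). At an unadjusted p under 0.05, the cascade list had 0 genes in both tables and the eicosanoid list 1 without and 0 with tetracycline. The transcription factor list likewise had 1 and 0, and the signalling list 6 and 1. Of all genes tested, 10.8% and 5.34% were under that p. Among the list genes so counted, Ptges3 and Krt8 without and Ptprc with tetracycline were lower in fasted mice. Of the taste-like cascade upstream of Trpm5, 13 of 14 listed genes were in the tables, and of those whose mean reached 1, 10 of 12 were higher in fasted mice without tetracycline (median 0.57) and 7 of 13 with it (median 0.32). Itpr3, a calcium release channel, and Trpm4, the close relative of Trpm5, have the highest deposited means of the list, which are not scaled by length. The authors' deposited tables gave Itpr3 0.31 and −0.14, and Trpm4 0.38 and 0.75. The eicosanoid enzymes had a median of 0.36 in mice without the antibiotic and −0.22 in mice given it, and 6 and 3 of 8 genes were higher. Pla2g4a, the phospholipase that frees arachidonic acid, was at 0.03 and −0.10 in the authors' deposited tables. Ptges3, a prostaglandin E synthase and chaperone partner, was at −0.50 and −0.35. Of the transcription factors of tuft and secretory fate, 10 of 12 were listed, with a median of 0.21 in both tables. Hnf4a, a factor of all enterocytes, was at 0.04 and −0.13 in the authors' deposited tables, and Sox9, a crypt factor that tuft cells keep, at 0.38 and 0.52.

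The 24 genes of tuft cell signalling and structure had medians of 0.22 and 0.06 without and with tetracycline, and 17 and 13 of the 24 were higher. The members with the highest deposited means, Krt8 and Vil1, are used by all enterocytes, with changes of −0.61 and 0.01 without tetracycline in the authors' deposited table. The list mixes genes narrow to tuft cells within the epithelium with genes that leukocytes also use. The following were chosen after their values were seen. Bmx, a cytoplasmic tyrosine kinase, was in the authors' deposited tables at 0.77 (SE 0.32) without tetracycline and at 0.33 (SE 0.48) with it, and Il17rb, a subunit of the IL-25 receptor, at 0.72 (SE 0.38) and 0.73 (SE 0.47). Alox5 of the eicosanoid list, the 5-lipoxygenase that Alox5ap serves, was at 0.52 (SE 0.30) and 0.35 (SE 0.41). Other genes of the 4 lists were lower under the antibiotic. Plcg2 and Plcb2 of the cascade were at −0.35 and 0.47 without tetracycline and at −0.90 and −0.93 with it. The transcription factor gene Runx1 was at 0.54 and −0.74, in a list with 8 genes higher without and 6 with tetracycline. Siglecf and Cd300lf, surface receptors that tuft cells share with myeloid cells, had changes in the authors' deposited tables of 0.80 (SE 0.36) and 0.82 (SE 0.38) without tetracycline and of 0.001 (SE 0.39) and 0.12 (SE 0.49) with it. Rgs2, another G protein regulator, was at −0.32 (SE 0.28) and 0.43 (SE 0.38) in the authors' deposited tables. The leukocyte phosphatase genes Inpp5d and Ptprc stood in the authors' deposited tables at −0.08 and −0.44 without tetracycline and at −1.12 and −1.63 with it.

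Of the type 2 immune circuit that tuft cells feed, 15 of 19 genes were listed without and 16 with tetracycline, and none was called by the authors' DESeq2 test, with 3 and 1 under an unadjusted p of 0.05 (10.8% and 5.34% of all genes). The median change was −0.05 without and −0.74 with tetracycline. Stat6, which carries the IL-13 signal in the epithelium, was at −0.01 and −0.24, and its receptor gene Il13ra1 at 0.04 and −0.31 in the authors' deposited tables. The 3 under an unadjusted p of 0.05 without tetracycline were Il4ra, the other chain of the IL-13 receptor, Retnlb, a goblet cell product that IL-13 raises, and the growth factor gene Areg, all named after their values were seen. The authors' deposited tables gave Il4ra 0.78 (SE 0.36, adjusted p 0.370) without and 0.46 (SE 0.45) with tetracycline, and Areg −1.02 (SE 0.37, adjusted p 0.157) and −1.46 (SE 0.50, adjusted p 0.281). Retnlb had 4 and 0 counts in the fed and 48 and 8 in the fasted libraries without tetracycline, and 0 and 2 against 13 and 3 with it. Its adjusted p in the authors' deposited table without the antibiotic was 0.158. Il4, chosen in the same way, was read at 0 to 3.94 normalized counts per library, too few for a comparison at this depth.

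Several of the tuft cell genes are also used by other cells, and most markers of those cells were lower in fasted mice. All 8 B lymphocyte markers fell on fasting without tetracycline in the authors' deposited table (median −2.08). With tetracycline all 8 were lower (median −1.85) and 0 were called, with 1 under an unadjusted p of 0.05 in the authors' DESeq2 test. That test called 0.267% of all genes as lower there, and 5.34% were under an unadjusted p of 0.05. Of 10 myeloid markers, which stand for cells that also use Alox5ap and Ltc4s, 9 were lower in each table. The medians were −1.10 and −1.34, and Lyz2, a macrophage lysozyme, fell by 1.47 (SE 0.42, adjusted p 0.0250) without tetracycline in the authors' deposited table. Their summed normalized counts were 3694 and 6167 in the fed and 1934 and 2907 in the fasted libraries without tetracycline. With tetracycline the myeloid sums were 10428 and 4682 in the fed and 4196 and 1194 in the fasted libraries. Of 12 mast cell and eosinophil markers, 8 were lower without tetracycline (median −0.97), and 9 of the 11 whose mean reached 1 with it (median −1.43). The 2 called without tetracycline, where the authors' test called 1.22% of all genes as lower, were the mast cell proteases Mcpt1 and Mcpt2. Their changes were −1.98 (SE 0.33) and −2.19 (SE 0.35) in the authors' deposited table. Mcpt1 also fell with tetracycline, with a change of −2.40 (SE 0.62) there. The eosinophil granule genes Epx and Prg2, named after their values were seen, had means of at most 4.40 normalized counts. The mast cell and eosinophil sums were 6299 and 3991 for the fed against 2259 and 2985 for the fasted libraries, and with tetracycline 5185 and 3097 against 2942 and 1473. Each of these 3 sums was thus lower on average in the fasted libraries, the side on which the tuft cell genes were higher. The part of these cells in the values of the tuft cell genes was not tested.

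**Figure D3:**
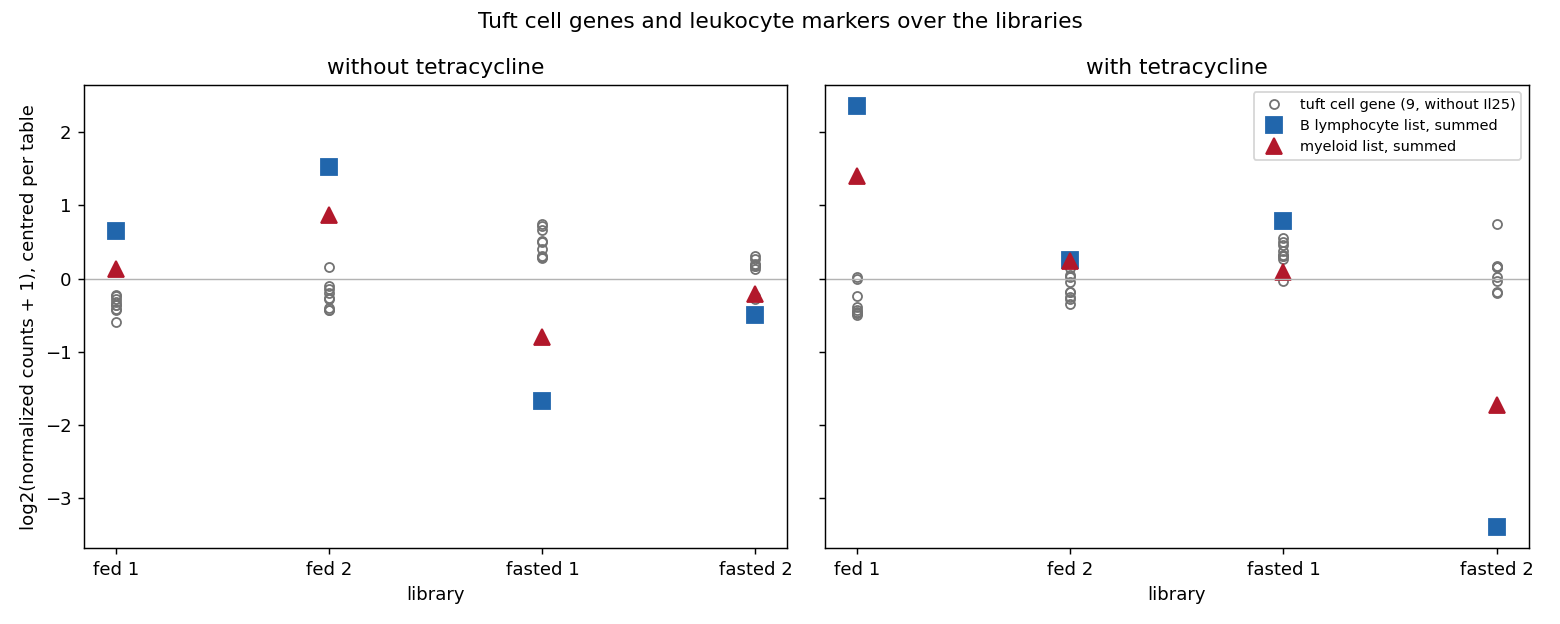
Log2(normalized counts + 1), centred on the mean of the 4 libraries of each table, for 9 tuft cell genes (grey circles, Il25 left out), and for the summed B lymphocyte (blue squares) and myeloid markers (red triangles). Without tetracycline the grey circles are mostly below 0 in the fed and above 0 in the fasted libraries while the leukocyte sums do the opposite; with tetracycline, fed library 1 and fasted library 2 hold the extreme leukocyte sums.

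Platelet and red cell markers, which share Gfi1b, had a median of −1.76 without tetracycline, where the haemoglobin gene Hba-a1 fell by 2.64 and the haem synthesis gene Alas2 fell by 2.60 in the authors' deposited table. With tetracycline the median was −0.68. The sums of 7 of these genes were 3480 and 7205 in the fed and 2248 and 1619.6 in the fasted libraries without tetracycline, and 3792 and 2869 against 2904 and 1874 with it. Stromal markers, some of whose cells use Dclk1, had medians of −1.13 and −1.10. The collagen genes Col1a1, Col1a2 and Col3a1 fell without tetracycline, with changes of −2.61, −2.93 and −4.24 in the authors' deposited table. The stromal sums were 1869 and 3254 in the fed and 956 and 1782 in the fasted libraries without tetracycline, and 4504 and 1838 against 2471 and 859 with it. Enteric neurons and glia also use Dclk1. Their 9 listed markers had medians of 0.09 and −0.02, with sums of 321 and 332 in the fed and 774 and 352 in the fasted libraries without tetracycline, so that fasted library 1 was high there too. Ret, a receptor kinase gene, made up most of these sums, at 215.4 and 242.1 in the fed and 683.4 and 234.4 in the fasted libraries. With tetracycline these sums were 329 and 299.8 against 303 and 406. The change of Ret was 1.01 (SE 0.46) without tetracycline in the authors' deposited table and it was not called (DESeq2, adjusted p 0.361). The neuronal marker Elavl4, also named after its values were seen, had a mean of 5.47 and 5.14 normalized counts. The part of neural RNA in the Dclk1 values was not tested.

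Among epithelial comparisons, the 10 pan epithelial genes had medians of −0.01 and 0.25, and none was called by the authors' DESeq2 test, with 2 without and 0 with tetracycline under an unadjusted p of 0.05 (10.8% and 5.34% of all genes). Lgals4, a galectin, and Krt19, a keratin, stood in the authors' deposited tables at 0.23 and −0.57 without tetracycline and at 0.62 and 0.03 with it. The 10 enteroendocrine genes, of another rare epithelial type, had medians of −0.16 and 0.40 and 2 genes under an unadjusted p of 0.05 in each table, and 1 was called, the hormone gene Cck, which fell by 1.02 (SE 0.31, adjusted p 0.0420) without tetracycline in the authors' deposited table. The difference between these lists and the tuft cell genes was not tested. Of the octamer factors related to Pou2f3, Pou2f1 and Pou2f2 were not called. Their B cell coactivator gene Pou2af1 fell by 1.55 (SE 0.43, adjusted p 0.0186) without tetracycline in the authors' deposited table, alongside the B lymphocyte markers.

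**Figure D4:**
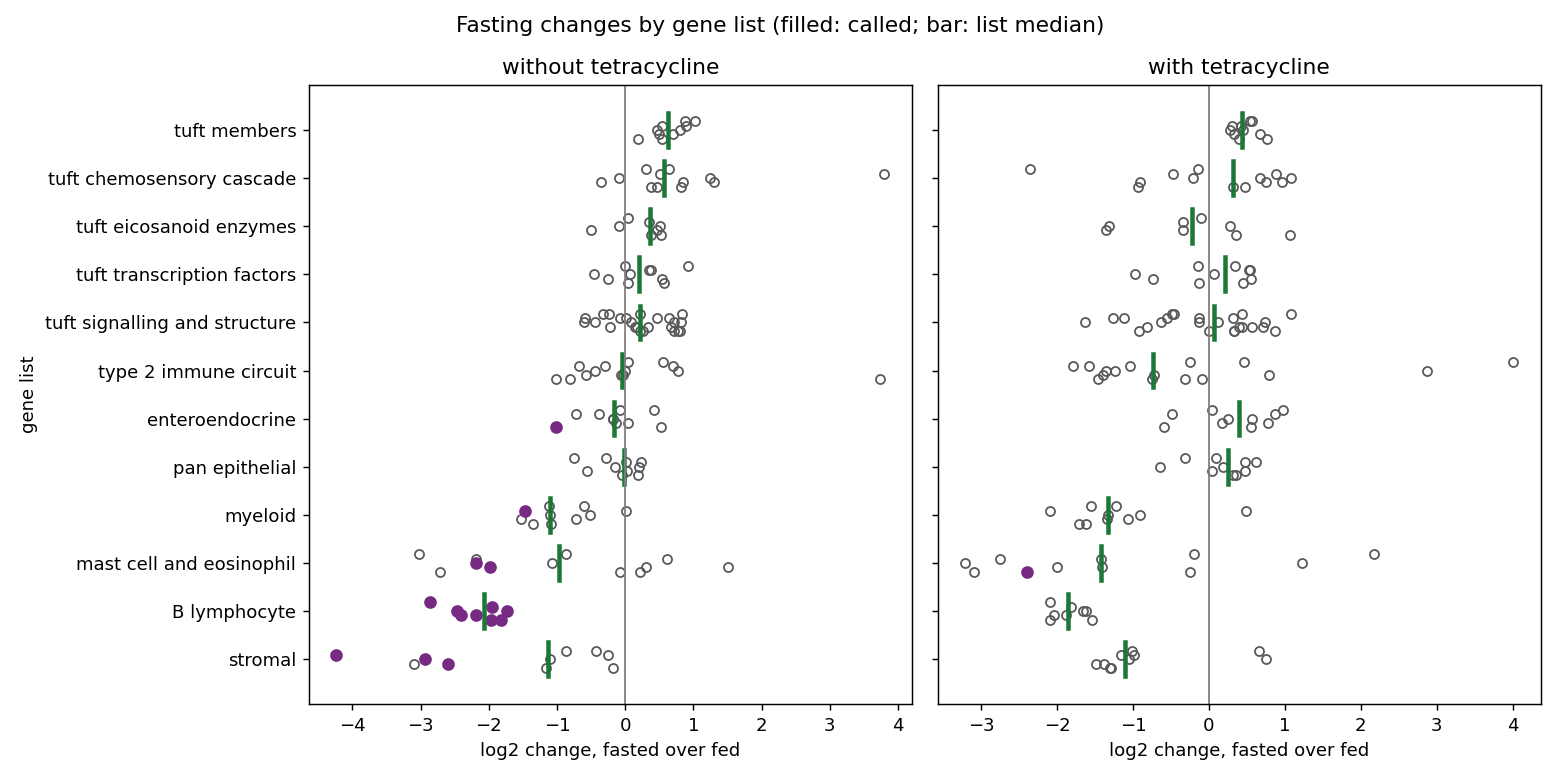
Log2 change, fasted over fed, of each gene whose mean reached 1 in 12 gene lists, without (left) and with tetracycline (right); filled points are genes called at an adjusted p under 0.05 and green bars are list medians. The tuft members lie entirely right of 0 in both panels with no filled point, and the called points lie among the B lymphocyte, mast cell, myeloid, stromal and enteroendocrine genes, all left of 0.

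The profile over the 8 libraries was then compared gene by gene, as log2 values centred within each table. This covered 10410 decoded genes whose mean reached 20 in both tables and did not exceed 2500, so genes with higher means were not compared. The comparison is a description over libraries that share the fed and fasted contrast. Against the mean of the other members, Pearson's r was 0.98 for Trpm5, 0.95 for Sh2d6, 0.93 for Avil, 0.90 for Pou2f3 and 0.90 for Rgs13. It was 0.87 for Dclk1, 0.70 for Alox5ap, 0.67 for Gfi1b and 0.44 for Ltc4s. An r of at least 0.9 to the members' mean was reached by 0.524% of genes outside the lists. Genes most like the members included Rtn4, Sh2d7, Kcnd3 and Ajuba, with r from 0.97 to 0.99. Sh2d7 encodes another SH2 domain protein, and its changes in the authors' deposited tables were 0.73 without and 0.57 with tetracycline. Rtn4, which encodes the reticulon protein Nogo, was at 0.46 and 0.40 in those tables, and Kcnd3, a potassium channel subunit, at 1.31 and 0.78. None of these 4 was called in either table.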

How the data were processed

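RNA of small-intestinal crypts was sequenced in 4 labelled samples, 1 in each of 4 groups. The 2 deposited tables are the authors' own fasting comparisons, without and with tetracycline, made with Salmon and DESeq2 on mm10, per the submitters' processing notes; the versions are not given in the sources used here. Crypts were shaken off with a chelating agent and trypsinised, and the library kit keeps no strand, per the labels' protocols. Per the file headers, the authors' mean is a signal, the average of counts divided by size factors. The deposited changes and standard errors are log2 values, and the authors' statistic is a score, their ratio. The deposited p-values carry a Benjamini-Hochberg adjustment.

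The mean equals a sum of whole counts times a step per library. The 4 steps of each table were found from the lowest means, and counts were solved per gene so that a negative binomial fit with the deposited standard error gave the deposited change. Every gene with a mean up to 2500 was decoded, 21066 without and 21563 with tetracycline, with a median gap of 5e-07 and 1e-06 in log2 change. Without tetracycline 6 of the 10 members had several candidate sets, of which the next best missed the change by at least 0.036. Decoded values are single values with no SD or test, and statements on depth cover counting error only. Decoding was run on simulated counts only with the steps found with tetracycline, and their changes came from the same fit that decoding uses. The several candidate sets that arose without tetracycline were therefore not covered. The difference test was run on values drawn with the deposited standard errors, a wider spread than the observed statistic had. Python 3.11.15, NumPy 2.4.6, pandas 2.3.3 and SciPy 1.17.1 were used.

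Calls are the authors' adjusted p under 0.05. Members and lists were chosen with earlier results of these data known. All 10 members are reported. Of each other list the genes called in either table were named, otherwise the 2 with the highest mean, and of genes outside the lists the 5 with the highest r to the members; some genes that this rule names are not reported here, and others, marked in the text, were named after their values were seen. Alternatives were a stricter threshold, pseudocounts 1 and 5, centring, other filters on the mean, a rescaled difference statistic and each library left out. Per-sample columns left unused numbered 0. Gene identifiers matched GENCODE M21 without their versions.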

Additional observations from a re-analysis of the deposited data

How the results depend on the processing

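No member was called after centring on the median of all genes, where the lowest adjusted p was 0.0775 without and 0.99991 with tetracycline, or in the difference test with its statistic divided by its robust SD, where it was 0.978. The stricter threshold of 0.01 could not add a call and tests nothing here. Of 196 alternative values, 191 moved by less than the standard error or stayed within 1.5 times the count. Some of these could not move, such as those under the filters on the mean, which all 10 members passed. No test was rerun with a library left out, and with no member called there was no call to lose. Leaving out each library in turn, a choice that for the counts of separated genes was made after seeing the data, gave 6 to 9 members with every fasted library above every fed library with tetracycline, beside 5 with all libraries. Fewer libraries to separate raise such counts by construction, and 26.2% to 36.5% of all decoded genes were then separated. Without tetracycline it gave 8 to 10, beside 8, with 32.6% to 41.0% of all decoded genes. The members higher in fasted mice numbered 8 to 10 in either table, and the single changes that moved by more than 1 standard error were those of Ltc4s, Gfi1b and Sh2d6 without fasted library 1. No paired analysis was possible because the deposited tables carry no replicate numbers and hold comparisons in place of samples. Precision is limited by 2 libraries per side, and for Il25 by its count.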
